A study of Mus musculus with 20 samples.

Results

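The genes described here are 8 genes of flow sensing and vascular tone, taken by symbol from the 55866 genes of the count table: Piezo1, Klf2, Klf4, Nos3, Edn1, Ece1, Ednrb and Ednra. They were read in endothelial polysomes of mammary tumors by RiboTag, in which Cre recombinase switches on an HA-tagged ribosomal protein (RPL22) in a chosen cell type and the tagged ribosomes are then pulled down with their mRNA. All mice, in both treatment groups, were female C57BL/6J animals of the genotype Rpl22HA/HA x Cdh5CreERT2 (RiboTagEC), so the tag depended on the endothelial cadherin promoter, and all received tamoxifen at 75 mg/kg for 5 days from 3 weeks of age. Py8119 mouse mammary tumor cells were placed in the mammary fat pad at 8 weeks, and once tumors had grown to about 30 mm3 (50 mm3 in the design text) the mice were given 25 mg/kg of 6-3-A6, an antibody against Notch4, or control IgG for 10 days. Each group had 5 tumors, and each tumor gave 1 input library of the whole homogenate and 1 IP library of the tagged ribosomes, 20 libraries in all. Levels are CPM, the counts of a gene per 1e6 counts of its library, scaled by TMM factors, and log2 CPM values carry a prior count of 2.

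Blood flowing over the vessel wall drags on ECs. PIEZO1 is a mechanically gated cation channel that opens under this force, and KLF2 and KLF4 are transcription factors that laminar flow induces and that set a quiescent, anti-thrombotic EC state. Nos3 encodes endothelial nitric oxide synthase, whose product relaxes smooth muscle. Edn1 encodes the precursor of endothelin-1, a constrictor peptide that endothelin converting enzyme (Ece1) releases. Endothelin-1 acts on the type A receptor (Ednra), found mainly on smooth muscle, and on the type B receptor (Ednrb), which ECs carry and which couples to nitric oxide release.

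Reads had been counted over whole gene spans, introns included, and reads in stretches shared by several genes had been dropped: all 12587 genes that lie wholly within another gene were at 0 in every library. This decided how much of each of the 8 genes could be seen. Coordinates below are those of the count table, whose header names no build and whose positions differ from those of GRCm38. Klf2 (chr8:73072877-73075500, + strand), Klf4 (chr4:55527143-55532466, - strand) and Ednrb (chr14:104052061-104081838, - strand) shared no base with another gene. Ece1 (chr4:137589548-137692540, + strand) shared 1.56% of its span and Piezo1 (chr8:123208437-123278068, - strand) 3.66%, but the stretch lost in Piezo1 was rich in exons, and 6810 of its 8219 exon bases lay outside other genes. Edn1 (chr13:42454952-42461466, + strand) shared 41.4% with the antisense gene Gm47118, but 1924 of its 2139 exon bases lay outside it. Nos3 (chr5:24569808-24589472, + strand) shared 90.1% of its span, nearly all with the antisense gene Gm15587 and the rest with Atg9b, and only 665 of its 4132 exon bases (16.1%) could collect reads. Ednra (chr8:78389660-78451093, - strand) lay entirely within the antisense gene 4933431K23Rik and had 0 counts in all 20 libraries, so its level was not measured here. Exon bases are from GENCODE M21 (GRCm38), in which the span of each of the 8 genes has the length given in the count table.

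**Figure D1:**
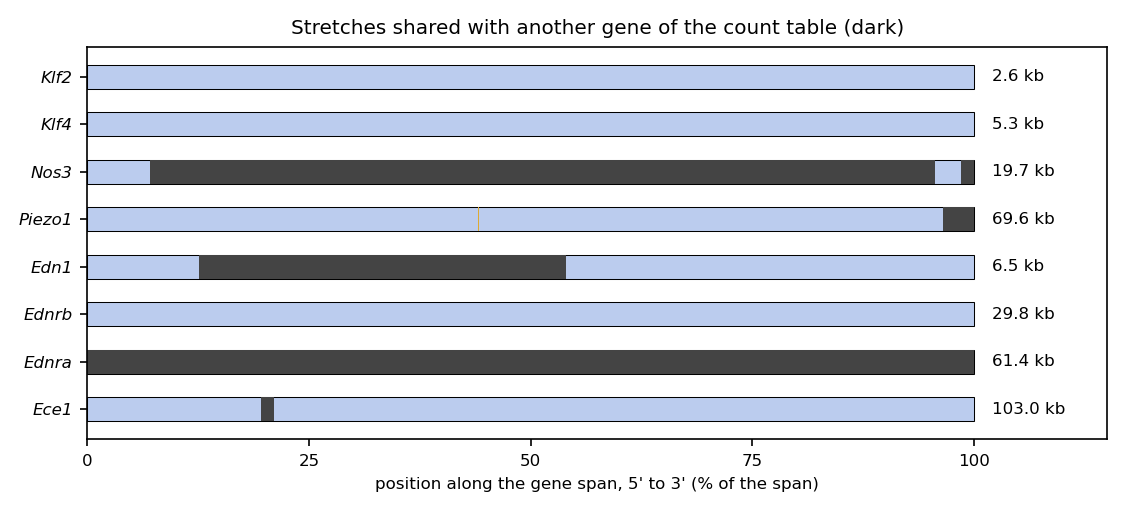
Each bar is the span of 1 gene from its 5' end (0%) to its 3' end (100%), with the span in kb at the right. Dark stretches are shared with a gene on the opposite strand and the thin yellow stretch in Piezo1 (107 bases) with a gene on the same strand. Reads there were dropped, which covers all of Ednra and 90.1% of Nos3.

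Promoter sequence from RefSeq (GRCm38.p6) is shown for Klf2 and Edn1, which with Nos3 were called between treatments in the 6 libraries kept by the study, for Ednrb, which was strongly enriched in IP, and for Piezo1, which was lower there. Each line gives the 200 bases before the annotated start site, 5' to 3' on the strand of the gene. Capitals mark matches, on either strand, to GAGACC (a shear stress response element), CACCC (the box that KLF proteins bind) and the core of the MEF2 site (CTA and TAG with any 4 bases between them).
Klf2 (chr8:72318862-72319061, + strand): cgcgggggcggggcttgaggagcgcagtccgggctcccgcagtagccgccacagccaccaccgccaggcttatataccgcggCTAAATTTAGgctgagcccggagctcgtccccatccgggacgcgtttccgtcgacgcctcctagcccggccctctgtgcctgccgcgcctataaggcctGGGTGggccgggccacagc
Edn1 (chr13:42301276-42301475, + strand): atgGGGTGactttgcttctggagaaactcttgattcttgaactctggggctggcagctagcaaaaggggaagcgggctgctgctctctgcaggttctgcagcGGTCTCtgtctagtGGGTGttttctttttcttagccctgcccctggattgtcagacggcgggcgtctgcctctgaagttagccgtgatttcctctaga
Piezo1 (chr8:122551330-122551529, - strand): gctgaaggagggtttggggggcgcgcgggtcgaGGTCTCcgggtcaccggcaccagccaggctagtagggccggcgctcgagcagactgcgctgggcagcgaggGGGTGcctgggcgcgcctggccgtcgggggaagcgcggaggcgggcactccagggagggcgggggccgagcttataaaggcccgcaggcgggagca
Ednrb (chr14:103843702-103843901, - strand): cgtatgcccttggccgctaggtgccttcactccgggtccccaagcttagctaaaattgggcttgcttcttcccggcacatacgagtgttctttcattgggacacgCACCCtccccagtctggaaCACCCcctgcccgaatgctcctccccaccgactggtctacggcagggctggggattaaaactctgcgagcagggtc
The MEF2 core of Klf2 began 118 bases before the start site, and 3.69% of the 32851 promoters in the table (300 bases each, from 250 before to 50 after the start) held such a core. The GAGACC element began 98 bases before the start of Edn1 and 167 before that of Piezo1, and 16.4% of all promoters held one. CACCC boxes were in 57.5% of all promoters, and no match was found for these motifs, or for GATAA and TGANTCA (in 25.4% and 7.81% of promoters), in the Klf4 and Ednra windows. A match describes the letters only.

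Totals per library were 11881214 to 26728205 counts, at which 3 counts, the limit that a count of 0 allows, corresponded to 0.112 to 0.252 CPM (counting error only). The labelled cell type was borne out by all 17 endothelial markers, which were enriched in the IP fraction (median log2 fold change 4.36, against -0.88 for the 12 macrophage markers tested), and macrophage markers were still read there at 4117 to 11791 summed CPM. The mean log2 CPM of the endothelial markers ran from 5.58 to 8.03 across the 10 IP libraries, and 3 libraries stood low: 6-3-A6 tumor 2 (5.58), control IgG tumor 4 (5.78) and control IgG tumor 5 (6.58). Among the inputs 6-3-A6 tumor 4 stood apart. Its median chi-square per gene against the other inputs of its group was 26.8 to 42.9, where the other pairs of inputs of a group gave 2.23 to 19.4, and its endothelial mean was 1.97, below the 2.80 to 3.34 of the other inputs. The 6 IP libraries that the study kept were tumors 2, 4 and 5 of control IgG and tumors 1, 3 and 4 of 6-3-A6. Endothelial means were 5.78 to 7.37 in the kept control libraries and 7.61 to 7.82 in the kept 6-3-A6 libraries, without overlap. Macrophage means ran the other way, at 8.22 to 8.30 and 7.17 to 7.29. Both differences stand beside every treatment result from these 6 libraries.

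The first question was which of these genes were read in endothelial polysomes rather than in the tumor as a whole. Nos3 and Ednrb had the largest differences, higher in IP. Edn1, Ece1 and Klf2 were enriched less, Klf4 was at about the same level in both fractions, and Piezo1 was lower in IP. Of 7 genes tested, 5 were called higher in IP and 1 lower (edgeR, adjusted p under 0.05), where 40.8% of all 14095 genes tested were called (19.7% higher and 21.1% lower). In these bulk libraries fewer cells of a type and less RNA per cell cannot be told apart.

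Piezo1, the flow sensor of the group, was read at 57.7, 132, 164, 146 and 180.5 CPM in the inputs of control IgG tumors 1 to 5 and at 34.8, 80.0, 85.4, 112 and 111 CPM in their IP libraries. In the 6-3-A6 tumors it was at 163, 161, 114.8, 49.4 and 72.2 CPM in input and at 82.7, 108, 73.4, 60.7 and 60.8 CPM in IP. IP was below input in 9 of 10 tumors, the exception being 6-3-A6 tumor 4, whose input stood apart, although the ranges of the fractions overlapped. The fitted log2 ratio of IP to input was -0.67 (SE 0.23, adjusted p = 0.0233, edgeR). Without the filter on low counts the log2 fold change was -0.61 and the adjusted p 0.051, and without 6-3-A6 input 4 they were -0.73 and 0.0113.

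Klf2 was at 34.6, 42.7, 21.2, 26.6 and 29.5 CPM in control IgG inputs and at 92.8, 48.3, 43.9, 37.9 and 39.9 CPM in the IP libraries of the same tumors. In 6-3-A6 tumors input was 17.3, 18.5, 26.7, 57.0 and 51.4 CPM and IP was 59.6, 41.8, 81.6, 91.0 and 77.7 CPM. IP was above input in 10 of 10 tumors, by 0.18 to 1.78 on the log2 scale. The fitted log2 fold change was 0.81 (SE 0.24, adjusted p = 0.0114, edgeR), and over the 6 tumors kept by the study it was 0.67 with an adjusted p of 0.102. The highest input level, 57.0 CPM, was that of 6-3-A6 input 4, and without that library the log2 fold change was 0.98 (adjusted p = 0.00198, edgeR).

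Klf4 showed no such difference. It was at 194, 145, 126, 112 and 133 CPM in control IgG inputs and at 188, 134, 109, 147 and 103 CPM in IP. In the 6-3-A6 group input was 136, 134, 151, 132 and 109 CPM and IP was 140.2, 108, 143, 119 and 110.3 CPM. IP was above input in 3 of 10 tumors, and the log2 fold change was -0.15 (95% interval -0.42 to 0.11, adjusted p = 0.334, edgeR). Klf2 was thus enriched in IP in every tumor and Klf4 was not.

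Nos3 was close to the detection limit in whole tumor, at 5 to 13 counts (0.322 to 0.70 CPM) in control IgG inputs and 0 to 10 counts (0 to 0.451 CPM) in 6-3-A6 inputs. Its IP levels were 34.6, 10.7, 8.54, 4.64 and 5.01 CPM in control IgG tumors 1 to 5 and 14.0, 5.58, 21.2, 17.9 and 10.5 CPM in 6-3-A6 tumors. Every IP library was above every input library. The log2 fold change was 5.09 (SE 0.45, adjusted p = 8.74e-09, edgeR). Nos3 passed the filter on low counts through its IP libraries alone and so had to differ, and its call adds no support to the count of genes higher in IP. Because only 665 exon bases collected reads, these CPM values understate the gene, and the inputs rest on a handful of counts. Without 6-3-A6 input 4, the library at 0, the log2 fold change was 4.99.

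Edn1, the ligand, was at 4.74, 1.96, 4.17, 4.72 and 2.32 CPM in control IgG inputs and 12.2, 4.49, 18.8, 5.22 and 3.77 CPM in IP. In 6-3-A6 tumors input was 2.54, 3.83, 2.45, 3.64 and 3.84 CPM and IP was 23.0, 3.86, 7.75, 11.9 and 6.46 CPM. IP spanned a wider range than input, and IP was above input in 10 of 10 tumors, by only 0.01 on the log2 scale in the closest. The log2 fold change was 1.42 (SE 0.32, adjusted p = 0.00163, edgeR).

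Ece1, the processing enzyme, was at 169.8, 167, 202, 124 and 140.0 CPM in control IgG inputs and at 414, 434, 519, 208 and 279 CPM in IP. In 6-3-A6 tumors it was at 185, 132, 141, 79.8 and 131 CPM in input and 474, 156, 335, 423 and 381 CPM in IP. IP was above input in every tumor, least in 6-3-A6 tumor 2. The log2 fold change was 1.23 (SE 0.19, adjusted p = 2.98e-05, edgeR).

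Ednrb, the receptor of ECs, was at 8.08, 8.34, 10.4, 10.2 and 6.12 CPM in control IgG inputs and at 136, 149.9, 165, 30.8 and 46.6 CPM in IP. In 6-3-A6 tumors input was 14.4, 8.79, 14.7, 20.03 and 2.76 CPM and IP was 199, 26.2, 181, 141 and 60.7 CPM. No IP library overlapped the inputs, and the log2 fold change was 3.38 (SE 0.39, adjusted p = 6.12e-07, edgeR). The low IP libraries of Ednrb, tumor 2 of 6-3-A6 and tumors 4 and 5 of control IgG, were the 3 libraries with the lowest endothelial marker means.

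**Figure D2:**
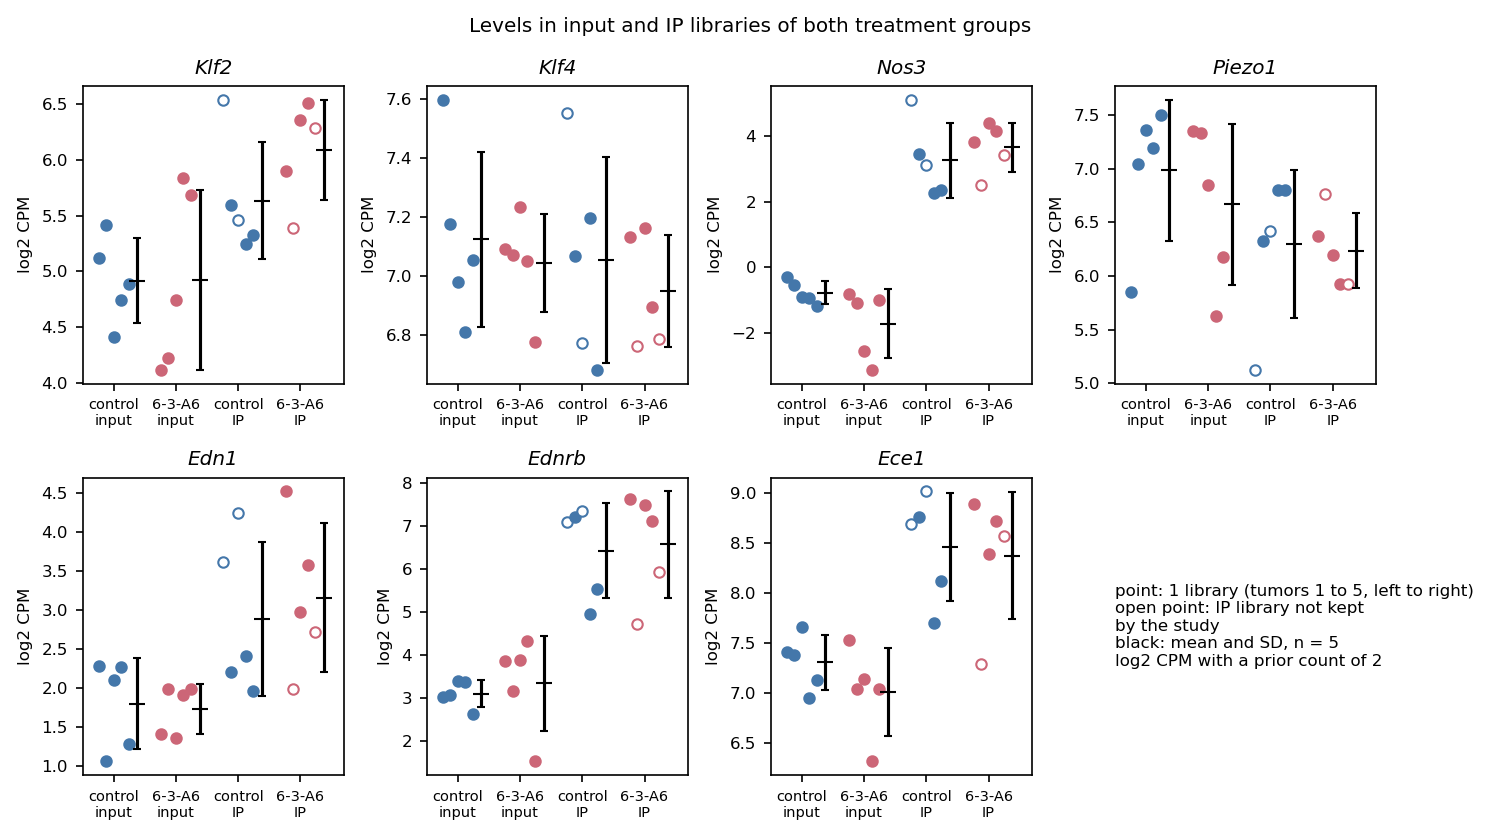
Points are log2 CPM (prior count 2) of single libraries, tumors 1 to 5 from left to right, in input and IP of the control IgG (blue) and 6-3-A6 (red) groups. Open points are IP libraries that the study did not keep, and black marks are the mean and SD of 5. IP and input are separate for Nos3 and Ednrb and overlap for Klf4.

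Within the tumors, the enrichment of Nos3 was above that of the endothelial marker mean in 7 of 10 tumors and that of Ednrb in 2 of 10. The Nos3 ratios of 6-3-A6 tumors 3 and 4 divide by inputs of 1 and 0 counts, so the prior count set their size. For Klf2, Klf4, Piezo1, Edn1 and Ece1 it was below the endothelial mean in 10 of 10 tumors. The smallest enrichment among the endothelial markers was 3.16 on the log2 scale, well above the 1.42 of Edn1. Against a share of 21.1% of all genes called lower and 19.7% higher, the markers of other cell types had medians below 0 in IP over input: -1.09 for lymphoid (4 of 6 tested called lower), -0.88 for macrophage (9 of 12), -0.84 for erythroid (0 of 6), -0.25 for epithelial (2 of 7), -0.24 for fibroblast (3 of 10) and -0.08 for mural markers (1 of 10 lower and 2 higher). The epithelial, fibroblast and mural counts lie near the share of all genes. The part of other cells in the levels of Piezo1 and Klf4 was not tested.

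**Figure D3:**
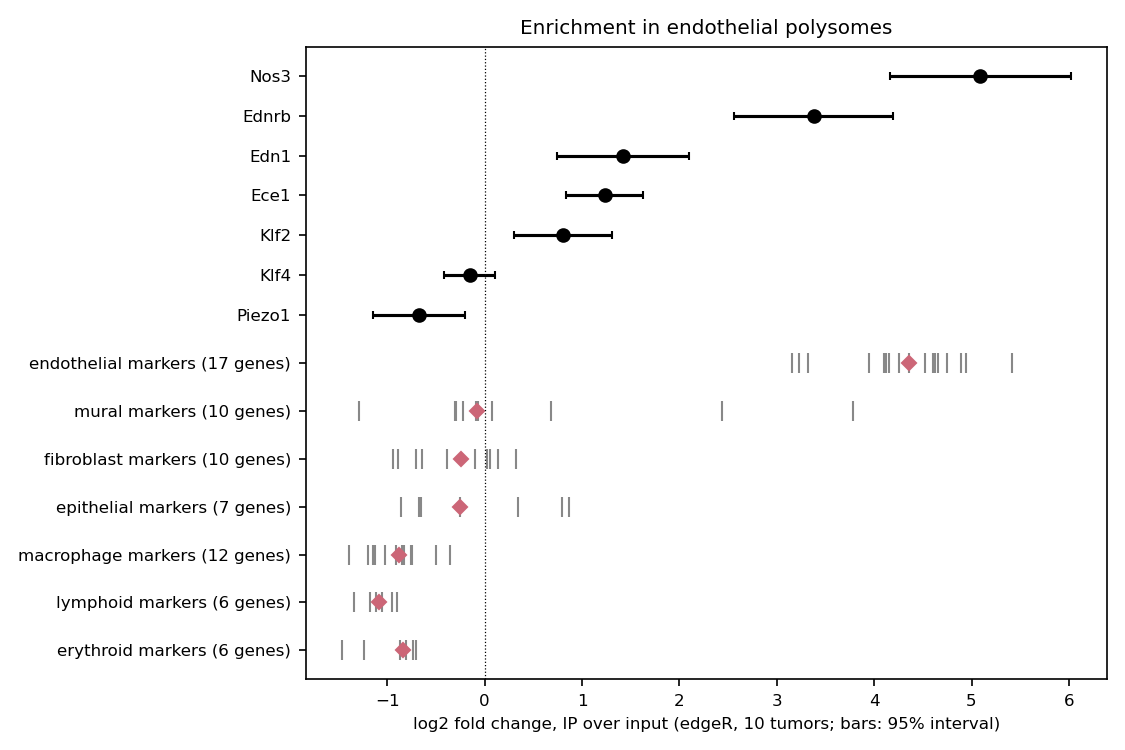
Black points are the log2 fold changes of IP over input for 7 genes, with 95% intervals, over 10 tumors. Grey ticks are single marker genes of each cell type and red diamonds their medians, 4.36 for endothelial markers. Ednrb lies among the endothelial markers, Nos3 rests on inputs of 0 to 13 counts, and Piezo1 lies below 0.

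Enrichment in IP was next read within each treatment group. In control IgG tumors 3 of 7 genes were called higher in IP, Nos3, Ednrb and Ece1, where 11.4% of 14488 genes were called (8.28% higher and 3.1% lower). With the tumor as a block, which pairs the input and IP of each tumor, Klf2 (log2 fold change 0.67, adjusted p = 0.0445) and Piezo1 (-0.74, adjusted p = 0.00431) were called as well, and Edn1 had an adjusted p of 0.0568 (edgeR). The block called more of all genes too, 3168 of 15601 in control IgG (1845 higher and 1323 lower). In 6-3-A6 tumors 4 genes were called, Nos3, Ednrb, Ece1 and Edn1, where 26.3% of genes were called (12.8% higher and 13.5% lower). Edn1 was no longer called without 6-3-A6 IP library 1 (adjusted p = 0.0712). The tumor block added Klf2 (1.10, adjusted p = 0.00212) and Piezo1 (-0.50, adjusted p = 0.0216, edgeR), where it called 5608 of 15601 genes (2810 higher and 2798 lower). Without 6-3-A6 input 4 Klf2 was called in 6-3-A6 tumors also without the block (1.28, adjusted p = 0.00845, edgeR). The difference between the groups was tested directly by the interaction of treatment and fraction. None of the 7 genes and 0 of 14488 genes were called (0.0%, edgeR, and 0 by DESeq2). At an unadjusted p under 0.05 there were 125 genes, and 65 without 6-3-A6 input 4 to 340 without 6-3-A6 IP 5 (edgeR). The widest member interval was that of Nos3, with an interaction of 0.98 (95% interval -0.80 to 2.75), so a sizeable difference was not detectable there.

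The second question was whether 6-3-A6 changed these genes in endothelial polysomes. The answer depended on the libraries used. In the 6 libraries kept by the study, Edn1, Nos3 and Klf2 were higher with 6-3-A6, and in all 10 IP libraries none of the genes differed by the test. Both fits share those 6 libraries, so the values are set side by side.

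In the kept libraries, Klf2 was at 48.3, 37.9 and 39.9 CPM with control IgG (tumors 2, 4 and 5) and at 59.6, 81.6 and 91.0 CPM with 6-3-A6 (tumors 1, 3 and 4). Nos3 was at 10.7, 4.64 and 5.01 CPM against 14.0, 21.2 and 17.9 CPM, and Edn1 at 4.49, 5.22 and 3.77 CPM against 23.0, 7.75 and 11.9 CPM. The groups did not overlap for these 3 genes, but the share of all genes without overlap was not taken, so this adds no support. The log2 fold change was 0.84 (SE 0.20, adjusted p = 0.0413) for Klf2, 1.34 (SE 0.32, adjusted p = 0.0390) for Nos3 and 1.63 (SE 0.37, adjusted p = 0.0353) for Edn1 (edgeR, n = 3 against 3). So 3 of 7 genes tested were called, all higher, where 4.61% of 13999 genes were called (2.57% higher and 2.04% lower). The members had been chosen with earlier results of these libraries known, so this count is not independent evidence. Klf2 and Nos3 belong to the genes that flow raises, whereas Edn1 belongs to those that sustained laminar flow lowers.

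Ednrb was at 149.9, 30.8 and 46.6 CPM against 199, 181 and 141 CPM, with overlap from control IgG tumor 2 alone (log2 fold change 1.17, 95% interval 0.14 to 2.21, adjusted p = 0.195, edgeR). Without that library its log2 fold change was 2.16 and the adjusted p 0.00624. Piezo1 was at 80.0, 112 and 111 CPM against 82.7, 73.4 and 60.7 CPM (-0.52, 95% interval -0.995 to -0.04, adjusted p = 0.211). Ece1 (0.39, adjusted p = 0.496) and Klf4 (0.04, adjusted p = 0.944) overlapped between groups.

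The calls in these 6 libraries did not hold when single libraries were left out. Leaving out control IgG library 4 or 5, or 6-3-A6 library 3 or 4, left 0 of the 3 genes called. Leaving out 6-3-A6 library 1 left Klf2 alone called, and leaving out control IgG library 2 ended the call of Edn1 (adjusted p = 0.0552). The log2 fold changes stayed above 0 throughout, at 0.73 to 0.99 for Klf2, 1.17 to 1.87 for Nos3 and 1.08 to 1.93 for Edn1. With a score of the endothelial markers as a covariate, 0 genes of the whole table were called, and the log2 fold changes became 0.34 for Klf2, -0.40 for Nos3 and 2.36 for Edn1, while Ednrb (-1.95) and Ece1 (-1.04) turned negative. The score separated the kept groups (-0.30 to 1.01 in control IgG and 2.54 to 2.68 in 6-3-A6), so in these 6 libraries it cannot be told apart from treatment. Of the marker lists, read against 2.57% of all genes called higher and 2.04% lower, 5 of 17 endothelial markers were called higher with 6-3-A6 (summed 1588 to 5166 CPM against 5149.5 to 6383 CPM), and 7 of 12 macrophage markers tested were called lower (summed 8194 to 9649 CPM against 4117 to 4731 CPM), with Itgam at 0 throughout. Fibroblast markers (3 of 10 lower, median log2 fold change -1.01) and epithelial markers (2 of 7 lower, median -0.97) had called members too, and 1 of 10 mural markers was higher and 1 lower. The erythroid list had the largest median difference, with 3 of 4 tested higher (median 3.21, summed 21.1 to 46.7 CPM against 31.4 to 562 CPM), while 0 of 6 lymphoid markers tested were called. The part of these cells in the differences of Klf2, Nos3 and Edn1 was not tested.

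In all 10 IP libraries the mean level of Klf2 was 52.6 ± 22.8 CPM (SD, n = 5) with control IgG and 70.3 ± 19.6 CPM (n = 5) with 6-3-A6. Nos3 was at 12.7 ± 12.5 CPM and 13.8 ± 6.12 CPM, and Edn1 at 8.90 ± 6.50 CPM and 10.6 ± 7.51 CPM, all with overlapping groups. The log2 fold changes were 0.41 for Klf2 (95% interval -0.19 to 1.01), 0.11 for Nos3 (-1.03 to 1.25) and 0.25 for Edn1 (-0.88 to 1.38). Those of Ednrb (0.19), Ece1 (-0.07), Piezo1 (-0.14) and Klf4 (-0.14) lay nearer to 0 than that of Klf2, with intervals that spanned 0. None of the 7 genes and 0 of 13602 genes were called (0.0%, edgeR; 292 at an unadjusted p under 0.05, and 135 without control IgG IP 2 to 989 without 6-3-A6 IP 5; 0 by DESeq2). Among the 4 libraries added, control IgG library 1 had the highest Klf2 (92.8 CPM) and Nos3 (34.6 CPM) of all IP libraries, control IgG library 3 had 18.8 CPM of Edn1, and 6-3-A6 library 2 was the lowest of its group for all 3 genes. Without control IgG library 1 the log2 fold change was 0.72 for Klf2 and 0.93 for Nos3 (unadjusted p = 0.00601 and 0.0279, adjusted p = 0.999 for both, edgeR).

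In input none of the 6 genes tested and 0 of 13683 genes were called (0.0%, edgeR; 180 at an unadjusted p under 0.05, and 83 without control IgG input 4 to 560 without 6-3-A6 input 5; 0 by DESeq2). Nos3 was too low to be tested there. The largest log2 fold change was that of Ednrb (0.52, 95% interval -0.36 to 1.41), and the others lay between -0.27 and 0.18.

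**Figure D4:**
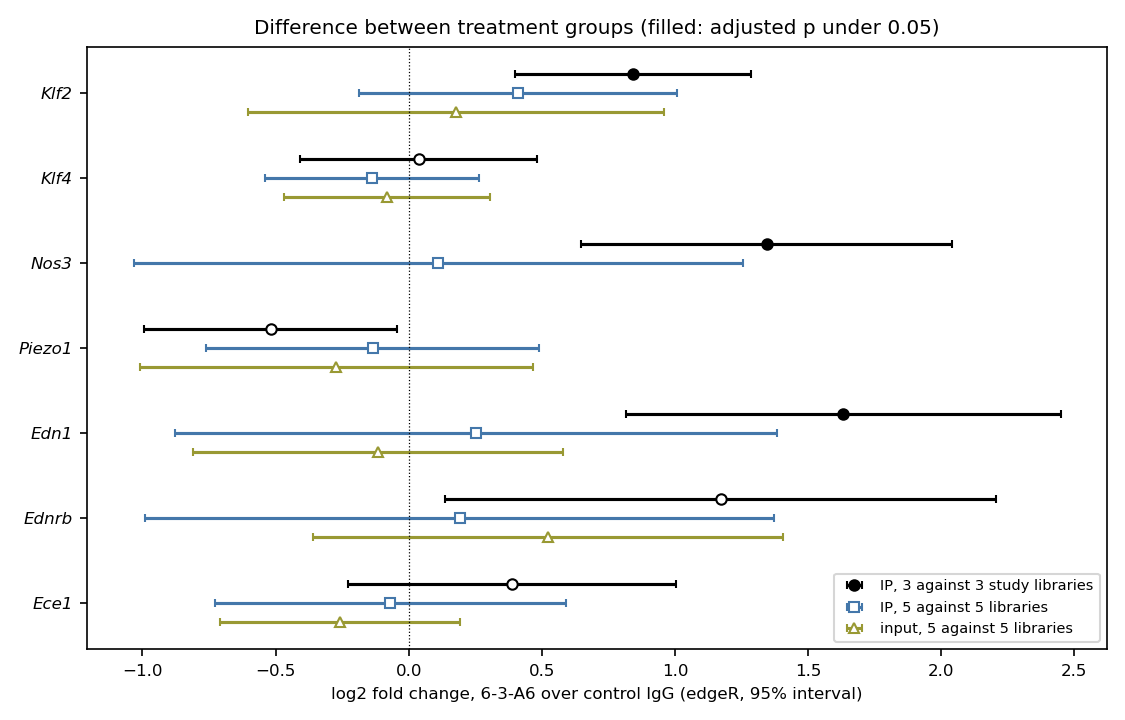
Log2 fold changes of 6-3-A6 over control IgG with 95% intervals, for the 6 kept IP libraries (black circles), all 10 IP libraries (blue squares) and the 10 inputs (green triangles, Nos3 not tested). Filled symbols have an adjusted p under 0.05, which are Klf2, Nos3 and Edn1 in the kept libraries alone.

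The level of each gene was next taken relative to the endothelial content of its own library, as its log2 CPM minus the mean log2 CPM of the 17 endothelial markers. The differences between 6-3-A6 and control IgG were then 0.37 for Klf2, 0.32 for Nos3, 0.18 for Edn1, 0.06 for Ednrb, -0.14 for Piezo1, -0.17 for Ece1 and -0.19 for Klf4. By a two-sided exact permutation test over 5 against 5 libraries, 0 of 7 differences had an adjusted p under 0.05 (unadjusted p = 0.405 to 0.857, smallest possible 0.00794). Relative levels of Klf2 ran from -2.44 to -0.53 with control IgG and from -1.85 to -0.19 with 6-3-A6, so the groups lay over each other. In the 6 kept libraries the relative difference of Klf2 was -0.29, the opposite sign. The differences there were -1.63 for Piezo1, -1.07 for Klf4, -0.68 for Ece1, 0.30 for Nos3, 0.35 for Edn1 and 0.36 for Ednrb. The groups did not overlap for Piezo1, Klf4 and Ece1, but the endothelial mean that is subtracted separated these 6 libraries by itself, so a gene at the same level in all of them would come out lower with 6-3-A6 by construction, and no test is given.

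Across the IP libraries, the 3 with low endothelial means were also the 3 lowest for Ednrb (26.2 to 46.6 CPM), Ece1 (156 to 279 CPM), Nos3 (4.64 to 5.58 CPM) and Klf2 (37.9 to 41.8 CPM) and the 3 highest for Piezo1 (108 to 112 CPM). The other 7 libraries formed a separate group with endothelial means above 7. Within them no relation to the endothelial mean passed the test: Pearson's r was 0.76 for Edn1 (exact permutation p = 0.0508, adjusted 0.356; Spearman's rho 0.71, p = 0.0881, adjusted 0.617), between 0.19 and 0.51 for Klf2, Klf4, Nos3, Ednrb and Ece1, and -0.41 for Piezo1 (7 relations). Since the libraries fell into separate groups, no coefficient with the endothelial mean over all 10 is given.

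**Figure D5:**
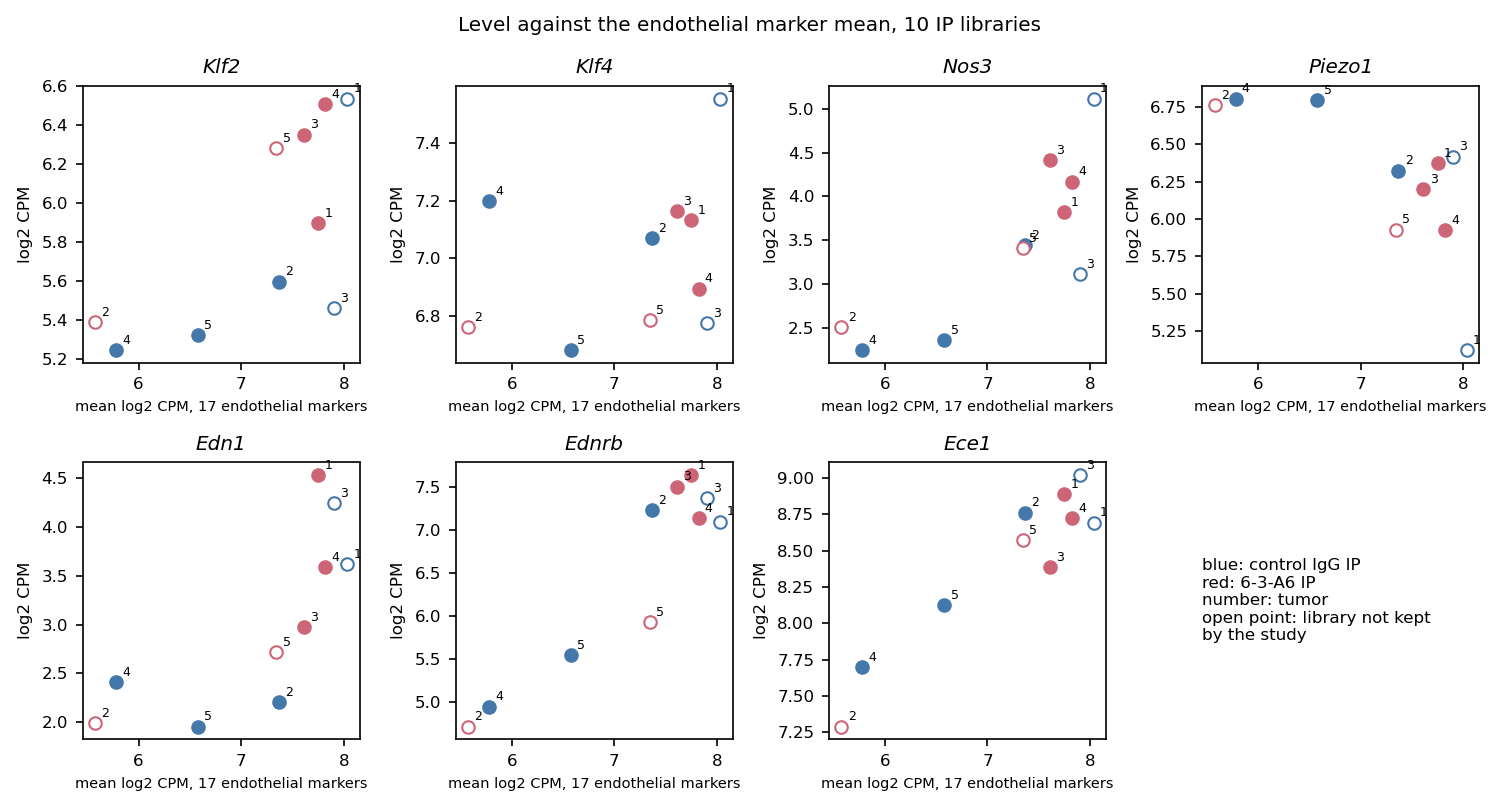
Each panel plots the log2 CPM of 1 gene against the mean log2 CPM of 17 endothelial markers in the 10 IP libraries, numbered by tumor, control IgG in blue and 6-3-A6 in red. Open points were not kept by the study. The 3 libraries below a mean of 7 are the lowest for Ednrb and Ece1 and the highest for Piezo1.

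Klf2 and Piezo1 ran in opposite directions from library to library, a pair singled out after the values were seen. The IP libraries with the most Klf2, control IgG tumor 1 and then 6-3-A6 tumor 4, were in the same order those with the least Piezo1. Within the 7 IP libraries with endothelial means above 7, Pearson's r was -0.74 and Spearman's rho -0.93, and over the 10 inputs -0.77 and -0.71 (-0.65 and -0.60 without 6-3-A6 input 4), given as a description. Other pairs had coefficients as large within those 7 IP libraries: r was 0.85 for Klf4 and Nos3, 0.79 for Klf2 and Nos3 and -0.78 for Nos3 and Piezo1. Other properties of the libraries moved with these genes. Over 7594 genes, the deviation of a library from the mean of its fraction had a rank correlation with exon length of -0.49 to 0.53 and with transcript GC content of -0.19 to 0.22 among IP libraries, and control IgG IP library 1 held the lowest value for length and the highest for GC. Within the same 7 IP libraries the GC trend had r = 0.58 with Klf2, 0.84 with Nos3 and -0.72 with Piezo1. All 3 genes are rich in GC, above 98.9%, 93.7% and 95.6% of those genes, and Piezo1 alone of them ran against the GC trend. There the length trend had r = -0.73 with Nos3, -0.81 with Klf2, which is shorter than all but 7.51% of the genes, and 0.87 with Piezo1, which is longer than 87.0%. Among inputs the trends ran from -0.44 to 0.51 for length and from -0.69 in 6-3-A6 input 4 to 0.69 for GC, and over the 10 inputs the length trend had r = -0.55 with Klf2 and 0.54 with Piezo1, the GC trend -0.02 and 0.17. The part of both trends in the opposite course of the genes was not tested.

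Levels can be compared between genes only per length, here as CPM per kb of exon outside other genes, which still includes reads from introns. In control IgG IP libraries Ece1 was highest at 74.4 ± 25.2 CPM per kb (SD, n = 5), followed by Klf4 (44.7 ± 11.2), Klf2 (28.5 ± 12.4), Ednrb (24.8 ± 14.6), Nos3 (19.1 ± 18.8), Piezo1 (12.4 ± 4.61) and Edn1 (4.62 ± 3.38). The order of means was the same in 6-3-A6 IP libraries, from 71.1 ± 24.4 for Ece1 to 5.50 ± 3.90 for Edn1. The ranges of all neighbors in this order overlapped in both groups. The place of Nos3 rested on control IgG IP library 1: without it Nos3 was at 10.9 ± 4.41 CPM per kb (n = 4), below Piezo1 at 14.3 ± 2.46. The order depends on the length taken. Per kb of the whole span outside other genes, introns included, the control IgG IP means were 25.6 for Klf4, 20.04 for Klf2, 6.52 for Nos3, 3.66 for Ece1, 3.55 for Ednrb, 2.33 for Edn1 and 1.26 for Piezo1, so Ece1, the gene of the longest span, was no longer first. Per kb of exon in control IgG input Klf4 led (46.6 ± 10.3), and Nos3 was lowest (0.726 ± 0.228). In that group the neighbors Klf2 and Ednrb (2.02 CPM per kb) did not overlap, and in 6-3-A6 input Piezo1 and Ednrb, and Edn1 and Nos3, did not.

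The other genes of the endothelin system added nothing measurable. Edn2 and Edn3, the other ligands, had at most 4 and 2 counts in any library, Kel had at most 9, and Ece2, which shares 96.6% of its span with other genes, at most 1. Ednra and most of Ece2 could not be read with this counting, so their levels in these tumors are not known. The genes of the system that were tested were thus Edn1, Ece1 and Ednrb. All 3 were called higher in IP, where 19.7% of all genes tested were.

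In the lists below, the shares of all genes called are 19.7% higher and 21.1% lower for IP against input, and 2.57% higher and 2.04% lower for 6-3-A6 in the kept libraries. In the nitric oxide pathway 5 of 19 genes tested were called higher in IP and 2 lower, which is not read as a result about the pathway, with a median log2 fold change of 0.14 against -0.06 over all genes tested. After Nos3 came Nostrin (2.24), which traffics the synthase, and Nos2 (2.12), the inducible synthase, with Gch1 and Ddah1 also higher, while Pts (-0.65) and Slc7a1 (-0.39) were lower. In the kept libraries 5 of 19 genes were higher with 6-3-A6 and 1 lower. This count is not read as a result about the pathway either, because 5 of 17 endothelial markers were called higher there too. The list was also chosen with earlier results of these data known. The higher genes of the pathway were Nos3, Nostrin (1.29), Nos2 (1.13), Gch1 (1.13), which makes the cofactor of the synthase, and Ddah1, which breaks down its inhibitor. The last 2 lie outside the 3 highest of the list and were chosen after their values were seen. Slc7a1, an arginine carrier, was lower (-0.83, adjusted p = 0.0405). Over all 10 IP libraries none of 18 tested was called, with a median of 0.09 against 0.01 for all genes.

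Of 13 genes tested that flow or KLF2 and KLF4 raise, 6 were called higher in IP and 0 lower, against 19.7% and 21.1% of all genes (median 0.48), led by Nos3, Slc9a3r2 (4.14) and Tek (3.95). Nos3 passed the filter through its IP libraries alone and Tek is among the 17 endothelial markers, so neither call adds support to this count. Of 8 genes tested that flow lowers, 3 were called higher in IP and 3 lower (median 0.23). In the kept libraries 3 of the 13 genes that flow raises were higher with 6-3-A6, against 2.57% of all genes, and 10 were not called (median 0.08). The higher genes were Slc9a3r2 (1.39), Nos3 and Klf2. Nos3 and Klf2 are members already counted above, and the list was chosen with earlier results of these data known. In the same libraries 5 of 17 endothelial markers were called higher too, so this count is not independent evidence. Of 9 genes tested in these libraries that flow lowers, Edn1 was higher, with a list median of 0.30. The adhesion molecules Vcam1 (-1.46, adjusted p = 0.0179) and Icam1 (-1.19, adjusted p = 0.0181) were lower (edgeR). Vcam1 was also lower in IP than in input (-0.93), as were 9 of 12 macrophage markers, and the part of those cells in its level was not tested. Over all 10 IP libraries 0 genes of either list were called. Among 18 genes of flow sensing and signaling, 8 were higher in IP, led by Cdh5 (4.36), Kdr (4.15) and Pecam1 (4.12), which form the junctional sensor of ECs and are themselves among the 17 endothelial markers, and 1, Piezo1, was lower. Gna11 (0.73, adjusted p = 0.0458) was the only gene of that list called between treatments in the kept libraries.

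In the Klf family 5 of 13 genes tested were higher in IP, Klf8 (1.73), Klf2 (0.81) and Klf13 (0.75) first, and 0 were lower, against 19.7% and 21.1% of all genes. Klf2 was the only member called with 6-3-A6 in the kept libraries. Of 10 prostanoid and natriuretic peptide genes tested, 4 were higher and 3 lower in IP (median -0.19), again against 19.7% and 21.1% of all genes. The receptors Npr2 (3.58), Tbxa2r (2.88) and Npr1 (2.41) led the higher genes, while the peptide Nppb (-1.86) and the cyclooxygenases Ptgs2 (-1.02) and Ptgs1 (-0.64) were lower. Tbxa2r had 0 to 6 counts in the inputs and passed the filter on low counts through its IP libraries alone. Its call therefore adds no support to the count of genes higher in IP. Ptgir, the prostacyclin receptor, named after its value was seen, was not called (-0.34, adjusted p = 0.0786, edgeR). Ptgs1 (-1.15) and the thromboxane synthase Tbxas1 were lower with 6-3-A6 in the kept libraries and none was higher.

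By Pearson's r of log2 CPM over the 10 IP libraries, among 13601 other genes, the genes most like Ece1 were the endothelial cadherin Cdh5 (0.99), Cdh13 and Adgrg1. Ednrb was most like Slc35f2, Sema3f and Ptprm (0.97 to 0.98), and Nos3 like Tlnrd1, Dusp2 and Dusp28 (0.95 to 0.96). Klf2 was most like Arpc3, Fdx1 and Def6 (0.93 to 0.94), Klf4 like Bri3, Slc25a14 and Gm9776 (0.95 to 0.97), Piezo1 like Tob1, Tnpo3 and Gm14584 (0.97 to 0.98) and Edn1 like Clip3, Rdh12 and Rflnb (0.90 to 0.92). These are the highest of many values over 10 libraries, 3 of them with low endothelial means, and they are given as a description.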

How the data were processed

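Input and IP RNA of 20 libraries was sequenced as single reads. Per the labels and methods, the authors aligned reads with STAR 2.7.4a and counted them with featureCounts 2.0.1 (1.5.2 is also listed), and deposited raw counts per gene. The build of the count table is not given in its header (mm10 in the methods, mm10 and GRCh38 in the submitters' processing notes). A second table by the authors holds the signal of 6 IP libraries, which equals the count divided by a constant in 100% of genes (relative tolerance 1e-06) and was used only to learn which libraries the study kept. Its fold changes and p-values were not used. Groups follow the titles, because the description lines of 6-3-A6 samples name the opposite fraction.

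Counts were tested with edgeR 4.0.16 in R 4.3.3 (TMM factors, filterByExpr, the quasi-likelihood test, with p adjusted over all genes by Benjamini-Hochberg and a threshold of 0.05). IP and input were compared over 20 libraries with treatment as a term or by group contrasts, and treatment in 6 kept IP, 10 IP and 10 input libraries. Relative levels were compared by exact permutation. The script was tested on simulated counts with known changes. Alternatives were DESeq2 1.42.0, its size factors, no filter, each library left out, the tumor or replicate number as block, and an endothelial score as covariate. By the titles, input and IP of a number come from the same tumor, so numbers pair the fractions. The correlation of their deviations was -0.08 to 0.70. It was near 0 for 6-3-A6 tumor 4 (-0.08) and control IgG tumor 4 (0.05), so it does not show the pairing in every tumor. Replicates are separate tumors. Totals were 11881214 to 26728205 counts. Members, gene lists and tests were chosen with earlier results of these data known. Named genes were all members, at most the 3 highest and 3 lowest called genes of each list, the endothelin genes, genes overlapping a member, and the 3 genes most correlated with each member; Gch1, Ddah1 and Ptgir fall outside this rule.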

Additional observations from a re-analysis of the deposited data

Results flagged for a closer look

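Control IgG IP library 1 lay far above the other 4 control IgG IP libraries for 2 genes, Klf2 (92.8 CPM, the next highest being 48.3 CPM) and Nos3 (34.6 CPM, the next being 10.7 CPM). The gap to the nearest library was over 0.71 of the range of the group, Dixon's critical value for 5 libraries, in 2 of 28 combinations of gene and group, and chance gives about 1 in 20. The same library had the lowest Piezo1 (34.8 CPM) and the highest endothelial marker mean (8.03) of the 10 IP libraries, and it is among the 4 IP libraries that the study did not keep.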

How the results depend on the processing

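Nos3 had only 0 to 13 counts in input, and the parts of depth and of the bases dropped by counting were not tested. Ednra could not be read, and calls between treatments rest on 3 libraries a group. Outside the settings below, the counts of genes called among the members kept within 1.5 times their value, and 230 single values kept their direction and side of the threshold under other settings (846 when libraries were left out one at a time). The cause of the changes below was not tested. With the tumor as replicate block, 5 members and 3168 genes were called in control IgG in place of 3 and 1649; this block changed no other count of members by over 1.5 times (6 in all tumors, 6 in 6-3-A6). Over the 6 kept tumors alone 3381 genes were called between IP and input in place of 5751. In the 6 kept libraries DESeq2 called 1190 genes and the fit with no filter 1459, in place of 646. With the endothelial score as a covariate 0 members and 0 genes were called (488 at an unadjusted p under 0.05), and Nos3 (-0.40), Piezo1 (0.13), Ednrb (-1.95) and Ece1 (-1.04) reversed, as did Nos3 (-0.13) and Ednrb (-0.34) over all 10 IP libraries. Levels relative to endothelial markers reversed for Klf2 (-0.29) in the kept libraries and for Piezo1 (0.044) and Ece1 (0.014) against Pecam1 and Cdh5.

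With single libraries left out, 0 to 3 members and 9 to 653 genes were called in the kept libraries (9 without 6-3-A6 IP 3, 161 without 6-3-A6 IP 4, 188 without control IgG IP 4 and 345 without 6-3-A6 IP 1). Between IP and input 1088 (without control IgG IP 3) to 2385 (without 6-3-A6 input 4) genes were called in control IgG in place of 1649. Log2 differences that crossed 0 ranged as follows. Within control IgG, IP over input of Klf4 ran from -0.27 to 0.027. The interaction ran from -0.20 to 0.094 for Klf4, -0.051 to 0.34 for Piezo1 and -0.14 to 0.83 for Edn1. Klf4 ran from -0.087 to 0.18 in the kept libraries. Over all IP libraries the ranges were -0.22 to 0.0068 for Klf4, -0.089 to 0.93 for Nos3, -0.25 to 0.71 for Edn1, -0.066 to 0.45 for Ednrb and -0.21 to 0.12 for Ece1. In input they were -0.13 to 0.35 for Klf2, -0.15 to 0.064 for Klf4 and -0.26 to 0.015 for Edn1. Relative to endothelial markers they were -0.56 to 0.18 for Klf4, -0.69 to 0.32 for Piezo1, -0.046 to 0.40 for Edn1 and -0.073 to 0.25 for Ednrb.

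Between treatments the libraries share only a number (correlation of deviations -0.33 to 0.37). With that number as a replicate block 0 genes were called, in IP (248 at an unadjusted p under 0.05) and in input (98). No paired analysis was possible because only number 4 is shared for the 6 kept libraries.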
